A study of Mus musculus with 18 samples.

Results

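The change of gene expression on induction of a dCas9 repressor was set against the change on induction of dCas9 alone, gene by gene, in mouse embryonic fibroblast lines. For each gene the interaction was the log2 change between induced and uninduced libraries of the repressor line minus the same change in the dCas9 line, so that a positive value means a change that was higher in the repressor line. All features that passed a filter on low counts were members, 14952 of 47937 gene IDs in the table with satellite models summed as 1, in 12 of the 18 RNA libraries of the series. The other 6 are of a line with an activator and entered only 1 alternative fit. The induced repressor group was a line with inducible dCas9-KM, given as a transcriptional repressor, kept for 24 h in 100 ng/ml doxycycline, and the uninduced repressor group was the same line untreated. The induced dCas9 group was a line with inducible dCas9-control, kept for 24 h in 10 ng/ml doxycycline, and the uninduced dCas9 group was that line untreated. Each group had 3 libraries. All lines were grown in hygromycin and serum free of tetracycline, and per the labels the effectors were directed to the major satellite repeat (MSR). The labels do not say whether a line is 1 clone, nor whether the 3 libraries of a group came from separate cultures, so p-values measure only the spread between libraries, which may be technical. Line, effector and doxycycline dose differed together between the induced groups, so their parts in an interaction cannot be told apart.

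Doxycycline switches on genes placed behind a tetracycline-controlled promoter. Cas9 made unable to cut DNA (dCas9) still binds the sequence that its guide RNA names, and a repressor domain fused to it can lower transcription there, while dCas9 alone can also impede transcription by occupying DNA. Major satellite is the tandem repeat of mouse pericentromeric heterochromatin, the compact chromatin beside the centromeres that is marked by histone H3 lysine methylation and bound by heterochromatin proteins. Setting the repressor line against the dCas9 line removes from each gene whatever change the induced dCas9 line showed as well.

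The libraries held between 14928765 and 23058761 counts and between 20107 and 21156 genes with a count. The noncoding RNA model Gm26917 took 9.28% to 11.99% of the counts and mitochondrially encoded genes 0.582% to 0.667%. On the third principal component, with 9.5% of the variance, the shallowest library, uninduced dCas9 library 3, stood apart from the other 11, so each result was also computed without each library in turn. Of 12 fibroblast markers, 11 passed the filter, among them Col1a1, Vim and Prrx1, and Thy1 had 1 count over the 12 libraries. Markers of other cell types at 0 counts in all 12 libraries included Epcam, Krt5 and Cldn7 (epithelial), Cd3e (leukocyte), Myod1, Myog, Myf5, Myf6 and Actc1 (muscle) and Map2, Rbfox3, Sox10, Sox2 and Olig2 (neural). Other markers did have counts. The highest library reached 176 CPM for Lpl (adipocyte), 54.9 for Tubb3 (neural) and 7.82 for Tnnt2 (muscle). It reached 5.61 for Cd68 and 3.46 for Csf1r (macrophage), and 3.7 for Krt14 (epithelial). Of the adipocyte and endothelial markers, 0 lacked counts in all 12 libraries.

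The targeted repeat was followed through 13 annotated gene models whose transcripts consist largely of it, summed as 1 feature because near-identical copies share reads. They lie in GRCm38 on chromosomes 2, 9 and 14, 10 of them on chromosome 9 between positions 3000282 and 3038316 with Gm26870 spanning nearly that whole stretch. To show what was targeted, 1 repeat unit is printed from the spliced Gm26870 transcript (GENCODE release M21, minus strand of chromosome 9, transcript positions 653 to 886 of 1170). It is 63.2% A or T and is 98.7% identical to the unit after it.
Gm26870 unit: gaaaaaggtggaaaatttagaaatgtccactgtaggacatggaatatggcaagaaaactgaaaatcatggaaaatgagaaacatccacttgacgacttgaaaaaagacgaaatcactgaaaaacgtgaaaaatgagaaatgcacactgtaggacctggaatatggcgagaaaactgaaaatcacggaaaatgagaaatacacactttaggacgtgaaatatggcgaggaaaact

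Satellite RNA fell on induction in each line, and fell further in the repressor line. The summed level was 0.869, 0.768 and 0.927 CPM (read counts scaled to a common library size) in the induced repressor libraries, 6.59, 5.65 and 6.09 CPM in the uninduced repressor libraries, 2.70, 1.52 and 2.63 CPM in the induced dCas9 libraries, and 7.56, 8.06 and 5.99 CPM in the uninduced dCas9 libraries. All 3 induced repressor libraries lay below all 3 induced dCas9 libraries, and the induced groups did not overlap the uninduced ones. The log2 change was -2.83 in the repressor line (adjusted p = 6.9e-21) and -1.69 in the dCas9 line (adjusted p = 3.5e-15), by edgeR's quasi-likelihood test with Benjamini-Hochberg adjustment, which gave all adjusted p-values below unless another tool is named. Between these changes the interaction was -1.14 (standard error (SE) 0.27, 95% interval -1.77 to -0.50 on 8 residual degrees of freedom, adjusted p = 0.00457). The uninduced lines differed by -0.26 (adjusted p = 0.283). These values rest on 14 to 17 reads per induced repressor library, and in a fit that also held the activator line's libraries the interaction was -1.14 with an adjusted p of 0.64. In the other 22 alternatives its adjusted p lay between 0.000293 and 0.042.

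Of the 14952 features, 551 (3.69%) passed an adjusted p of 0.05 in the interaction, 255 higher (1.71%) and 296 lower (1.98%). Most of these differences were small. The median size was 0.254 on the log2 scale, the quartiles were 0.185 and 0.397, and only 22 higher and 13 lower features reached 2-fold. In the repressor line's own induction 1855 features (12.4%) were called, 976 higher (6.53%) and 879 lower (5.88%). The dCas9 line's induction gave 192 (1.28%), 93 higher (0.622%) and 99 lower (0.662%), a count that fell to between 75 and 123 without any 1 of 5 dCas9 libraries (induced 2 or 3, uninduced 1, 2 or 3). Uninduced, the lines already differed in 391 features (2.62%), 213 higher (1.42%) and 178 lower (1.19%) in the repressor line. Induced, they differed in 2110 (14.1%), 1034 higher (6.92%) and 1076 lower (7.20%) in the repressor line. These comparisons share libraries with the interaction, so their values are given side by side below. The percentages above are the shares over all features to set beside the list counts below. Protein-coding genes made up 530 of the 551 called and 11688 of the 14952 tested, and the median level of called features was 67 CPM against 19.2 CPM for all tested.

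**Figure D1:**
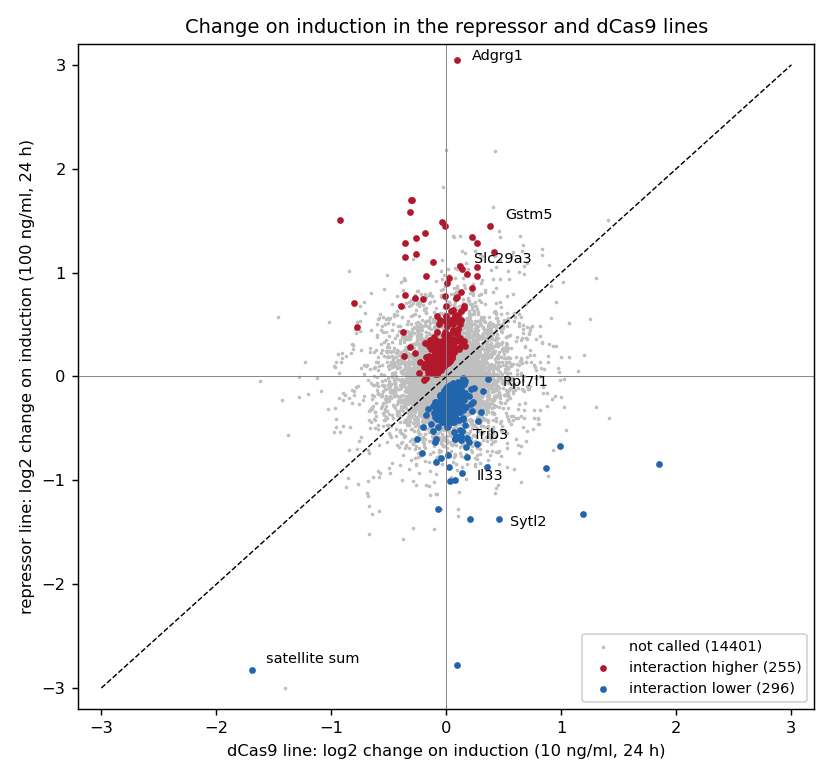
Each point is 1 tested feature, with the log2 change on induction in the dCas9 line on the horizontal axis and in the repressor line on the vertical axis; the dashed diagonal marks equal changes, red points are the 255 features called higher in the interaction and blue points the 296 called lower, and 1 uncalled point lies outside the axes. Adgrg1 stands at the top near no change in the dCas9 line, while the satellite sum lies at -1.69 and -2.83.

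The largest gain among features with a mean of at least 2 CPM was that of Adgrg1, an adhesion G protein-coupled receptor on chromosome 8 (94974751 to 95014217). Its level was 123, 118 and 118 CPM in the induced repressor libraries, 14.5, 14.6 and 14.4 CPM in the uninduced repressor libraries, 15.7, 14.6 and 16.4 CPM in the induced dCas9 libraries, and 15.7, 13.5 and 14.5 CPM in the uninduced dCas9 libraries. The induced repressor libraries stood far above the other 9, which overlapped. The interaction of Adgrg1 was 2.95 (SE 0.09, adjusted p = 1.03e-44), with changes of 3.04 in the repressor line and 0.09 in the dCas9 line. Of the 11 adhesion receptors tested, 3 were called higher and 2 lower (1.71% and 1.98% of all features were). Adgrf5, a relative below the 2 CPM limit and named here after its values were seen, had an interaction of 1.89 (SE 0.34, adjusted p = 5.08e-05). On the lower side were Adgrl2, a latrophilin, at -0.20 and Adgrg2 at -0.23.

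Slc29a3, a nucleoside transporter of lysosomes, measured 83.1, 78.8 and 81.2 CPM in the induced repressor libraries, 38.3, 39.3 and 38.8 CPM in the uninduced repressor libraries, 41.5, 41.6 and 43.3 CPM in the induced dCas9 libraries, and 40.5, 37.4 and 39.0 CPM in the uninduced dCas9 libraries. Its interaction was 0.95 (SE 0.06, adjusted p = 3.48e-22), and only the induced repressor libraries stood apart. Masp1, a protease of the lectin pathway of complement, and Src, the tyrosine kinase, had interactions of 0.67 (SE 0.07) and 0.52 (SE 0.04). Other gains concerned genes of low level. Padi3, a peptidylarginine deiminase, averaged 5.32 ± 0.61 CPM in induced and 1.91 ± 0.19 CPM in uninduced repressor libraries, and 1.95 ± 0.341 CPM in induced and 1.94 ± 0.490 CPM in uninduced dCas9 libraries (SD, n = 3 each). Its interaction was 1.52 (SE 0.26, adjusted p = 1.515e-05). Plb1, a phospholipase, reached 1.46 (SE 0.25), Adam8, a membrane metalloprotease, 1.14 (SE 0.23), Syt13, of the synaptotagmin family, 1.02 (SE 0.19) and Rasgrp3, an activator of Ras proteins, 0.90 (SE 0.20).

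**Figure D2:**
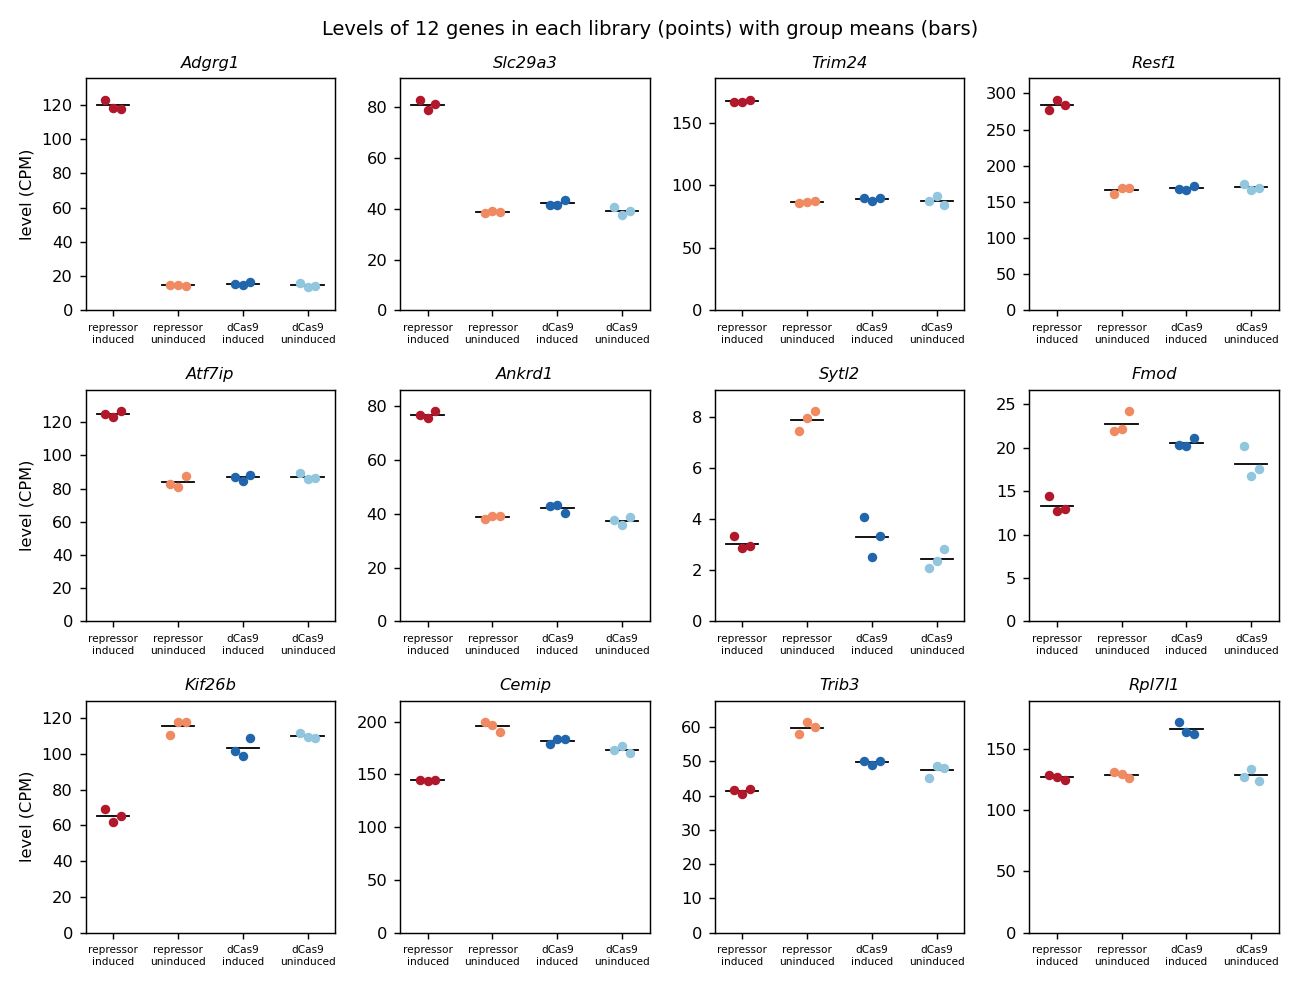
Level in CPM of 12 genes in each of the 12 libraries (points) with the mean of each group (bars), on axes that start at 0. In the panels of Adgrg1, Slc29a3, Trim24, Resf1, Atf7ip and Ankrd1 the 3 induced repressor libraries are the highest, in those of Fmod, Kif26b, Cemip and Trib3 they are the lowest, Sytl2 is highest in the uninduced repressor libraries and Rpl7l1 in the induced dCas9 libraries.

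Among the genes with the smallest adjusted p-values on the higher side were Trim24, Resf1 and Atf7ip. Trim24, a chromatin reader of the tripartite motif family (chromosome 6, 37870811 to 37966296), measured 167, 167 and 169 CPM in the induced repressor libraries, 86.3, 86.9 and 87.3 CPM in the uninduced repressor libraries, 90.2, 87.8 and 90.1 CPM in the induced dCas9 libraries, and 87.6, 91.5 and 84.5 CPM in the uninduced dCas9 libraries. The interaction of Trim24 was 0.93 (SE 0.05, adjusted p = 7.96e-30). Resf1, a factor of retroelement silencing that acts with the histone H3 lysine 9 methyltransferase Setdb1 (chromosome 6, 149309414 to 149335663), measured 277, 292 and 284 CPM in the induced repressor libraries, 161, 169 and 169 CPM in the uninduced repressor libraries, 168, 166 and 172 CPM in the induced dCas9 libraries, and 175, 166 and 169 CPM in the uninduced dCas9 libraries. For both genes the induced repressor libraries lay above the other 9 with no change called in the dCas9 line; the interaction of Resf1 was 0.78 (SE 0.04, adjusted p = 1.93e-29).

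Among the 47 tested members of a list of heterochromatin and silencing genes, 3 were called higher and 1 lower (1.71% and 1.98% of all features were). The median interaction was 0.05 against -0.0008 over all features. Atf7ip, the cofactor that stabilises Setdb1, measured 125, 123 and 127 CPM in the induced repressor libraries, 82.8, 81.2 and 87.3 CPM in the uninduced repressor libraries, 87.2, 84.6 and 88.3 CPM in the induced dCas9 libraries, and 89.5, 85.5 and 86.2 CPM in the uninduced dCas9 libraries. Its interaction was 0.58 (SE 0.05, adjusted p = 5.95e-17), again with the induced repressor libraries alone on the high side. Mbd1, a protein that binds methylated CpG, followed at 0.38 (SE 0.09, adjusted p = 0.00197), and Fam208a, a subunit of the HUSH silencing complex, at 0.23 (SE 0.05, adjusted p = 0.00202). Hmga2, a chromatin protein that binds AT-rich DNA, was lower at -0.20 (SE 0.04, adjusted p = 1.47e-05). Setdb1 itself did not pass, with an interaction of 0.13 (adjusted p = 0.131), nor did the H3 lysine 9 methyltransferase Suv39h1 at 0.00 (SE 0.05, adjusted p = 0.982) or the heterochromatin protein Cbx5 at 0.07 (adjusted p = 0.278).

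Contractile genes and targets of YAP, the coactivator that with TEAD factors turns on growth and adhesion genes, included members that were higher in the interaction. Of 18 tested, 4 were called higher and 0 lower in the interaction (1.71% and 1.98% of all features were). In the repressor line 12 rose and 1 fell (6.53% and 5.88% of all features did). In the dCas9 line 6 rose and 0 fell (0.622% and 0.662% of all features did). The median interaction was 0.07. Ankrd1, an ankyrin-repeat protein and a standard YAP reporter (chromosome 19, 36111961 to 36120099), measured 76.4, 75.5 and 78.2 CPM in the induced repressor libraries, 38.2, 39.3 and 38.9 CPM in the uninduced repressor libraries, 43.0, 43.3 and 40.4 CPM in the induced dCas9 libraries, and 37.6, 35.8 and 38.7 CPM in the uninduced dCas9 libraries. It rose by 0.98 in the repressor line and by 0.18 in the dCas9 line (adjusted p = 0.0241), with an interaction of 0.80 (SE 0.06, adjusted p = 6.15e-18). Ccn2, a secreted matricellular protein, averaged 231 ± 8.14 CPM in induced and 128 ± 2.47 CPM in uninduced repressor libraries, and 168 ± 12.2 CPM in induced and 144 ± 4.89 CPM in uninduced dCas9 libraries (SD, n = 3 each). Its interaction was 0.62 (SE 0.06, adjusted p = 2.90e-07). The actin-binding protein Tagln followed at 0.21. Ccn1, close kin of Ccn2, was at 0.14 with an adjusted p of 0.0239, which went to between 0.0635 and 0.158 without uninduced repressor library 2 or 3, induced repressor library 1, induced dCas9 library 3 or uninduced dCas9 library 2 or 3. Without induced dCas9 library 1 the count of the list was 7.

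The promoter window of Ankrd1 is shown because TEAD factors are known to bind the word GGAATG, here in capitals. It covers 250 bases before to 50 after the annotated start (chr19:36119795-36120094, GRCm38.p6, minus strand, RefSeq) and holds the word at 2 places, 210 and 123 bases before the start.
Ankrd1: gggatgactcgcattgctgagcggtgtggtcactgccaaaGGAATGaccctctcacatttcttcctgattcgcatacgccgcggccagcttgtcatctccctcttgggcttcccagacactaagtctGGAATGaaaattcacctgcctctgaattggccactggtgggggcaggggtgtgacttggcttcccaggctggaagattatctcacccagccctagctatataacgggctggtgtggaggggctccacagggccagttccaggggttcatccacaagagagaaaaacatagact
Searched on either strand, GGAATG occurs in 14.7% of 32851 such windows and 16.6% of 27025 genes. Of the contractile and YAP list, 15 of 18 members had a window and 11 of these held the word, 2 of the 2 called members with a window and 9 of 13 not called. Only 2 of the 4 called members had a window, too few for a comparison. A match describes the letters only.

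Genes of early response and of feedback on the kinase ERK also leaned upward. In the ERK feedback list, 4 of 15 members were higher and 0 lower (1.71% and 1.98% of all features were), with a median of 0.11. Dusp6, the phosphatase that inactivates ERK in the cytoplasm, was at 0.30 (SE 0.05, adjusted p = 1.97e-05), Phlda1 at 0.27 and Dusp4, a nuclear phosphatase of ERK, at 0.21. Dusp1 was at 0.54 (adjusted p = 0.00415), and at an adjusted p of 0.113 without uninduced dCas9 library 2. The uninduced repressor line started below the uninduced dCas9 line in 4 of these 15 genes, among them Dusp6 by -0.20 and Dusp4 by -0.21. Induced, Dusp4 differed between the lines by 0.00 (adjusted p = 0.991). Of 24 immediate early genes, which growth factors induce without new protein synthesis, 3 were higher (1.71% of all features were). These were Maff at 0.42 (adjusted p = 0.0559 without uninduced dCas9 library 2), Egr1 at 0.31 and Jun at 0.29. The count of the immediate early list was 5 without uninduced dCas9 library 1.

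Among glutathione and NRF2-linked genes, 3 of 25 were higher and 4 lower (1.71% and 1.98% of all features were), with a median of -0.10. The glutathione S-transferase Gstm5 measured 21.2, 22.0 and 25.1 CPM in the induced repressor libraries, 8.96, 7.26 and 9.05 CPM in the uninduced repressor libraries, 8.74, 9.72 and 10.4 CPM in the induced dCas9 libraries, and 7.37, 7.35 and 7.61 CPM in the uninduced dCas9 libraries. Its interaction was 1.06 (SE 0.13, adjusted p = 2.93e-09) beside a rise of 0.38 in the dCas9 line. Gstp1 followed at 0.36 (SE 0.06). These belong to multigene families with similar copies, so reads could have been split among relatives. On the lower side stood Mgst1, a membrane-bound transferase, at -0.40 and Osgin1, a growth inhibitor induced by oxidative stress, at -0.36.

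The amino acid arm of the stress response was lower in the interaction. ATF4 is the transcription factor of the integrated stress response; when amino acids or protein folding fail, it turns on amino acid transporters, synthetic enzymes and transfer RNA synthetases. Of 33 tested members, 24 were called lower and 0 higher in the interaction (1.98% and 1.71% of all features were). The median was -0.27. In the repressor line 26 fell and 1 rose (5.88% and 6.53% of all features did). In the dCas9 line none was called by edgeR, with 10 at an unadjusted p under 0.05. The summed level of the list was 3958, 3954 and 3881 CPM in the induced repressor libraries, 4604, 4663 and 4688 CPM in the uninduced repressor libraries, 4344, 4433 and 4398 CPM in the induced dCas9 libraries, and 4295, 4340 and 4269 CPM in the uninduced dCas9 libraries. The induced repressor libraries were the lowest and the uninduced repressor libraries the highest. Uninduced, 15 of the 33 were already higher in the repressor line (1.42% of all features were), and induced, 20 were lower in the repressor line (7.20% of all features were). Less RNA per cell and fewer cells that make it cannot be told apart in bulk RNA, here or in the lists below.

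**Figure D3:**
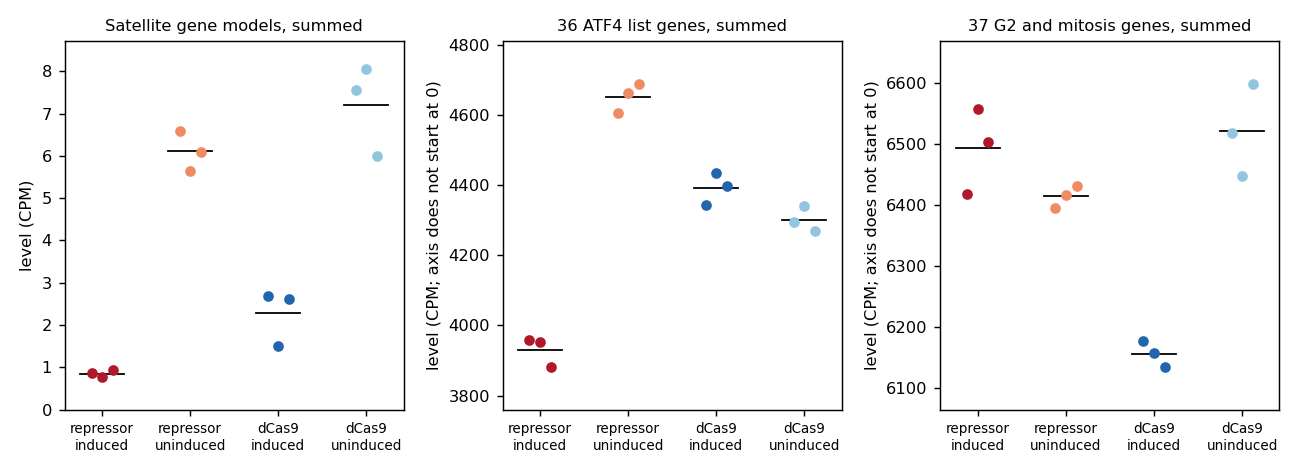
Level in CPM in each library (points) with group means (bars) of the summed satellite models on an axis from 0, and of the summed ATF4 list (36 genes) and G2 and mitosis list (37 genes) on axes that do not start at 0. The satellite and ATF4 sums are lowest in the induced repressor libraries, at 0.768 to 0.927 CPM and 3881 to 3958 CPM, and the G2 and mitosis sum is lowest in the induced dCas9 libraries, at 6134 to 6177 CPM.

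Trib3, a pseudokinase that restrains ATF4 signalling (chromosome 2, 152337422 to 152344032), measured 41.7, 40.4 and 42.0 CPM in the induced repressor libraries, 58.1, 61.5 and 59.9 CPM in the uninduced repressor libraries, 50.1, 48.9 and 50.2 CPM in the induced dCas9 libraries, and 45.2, 48.8 and 48.2 CPM in the uninduced dCas9 libraries. Its interaction was -0.60 (SE 0.06, adjusted p = 9.48e-13), with -0.53 in the repressor line, 0.07 in the dCas9 line and 0.34 between the uninduced lines. The group order is that of the list's sum. Asns, asparagine synthetase (chromosome 6, 7675169 to 7693254), measured 199, 192 and 196 CPM in the induced repressor libraries, 244, 253 and 251 CPM in the uninduced repressor libraries, 230, 230 and 233 CPM in the induced dCas9 libraries, and 225, 231 and 222 CPM in the uninduced dCas9 libraries. The interaction of Asns was -0.38 (SE 0.04, adjusted p = 1.985e-13), and its induced repressor libraries again lay below all others. Gpt2, the mitochondrial alanine aminotransferase, was at -0.47, Sesn2, a stress sensor that inhibits the growth kinase mTORC1, at -0.46, and Slc7a5, the large neutral amino acid transporter, at -0.28. Atf4 itself was at -0.22 (SE 0.04, adjusted p = 3.60e-06). The members that did not pass included the transcription factors Ddit3 at -0.27 (adjusted p = 0.1645) and Atf3 at -0.01 (adjusted p = 0.991).

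The promoter windows of Trib3 and Asns are shown because ATF4 and its C/EBP partners are known to bind the word TGATGNAA, here in capitals. The Trib3 window (chr2:152344011-152344310, GRCm38.p6, minus strand) holds it on the opposite strand just after the start, and the Asns window (chr6:7693160-7693459, GRCm38.p6, minus strand) holds it 23 bases before the start.
Trib3: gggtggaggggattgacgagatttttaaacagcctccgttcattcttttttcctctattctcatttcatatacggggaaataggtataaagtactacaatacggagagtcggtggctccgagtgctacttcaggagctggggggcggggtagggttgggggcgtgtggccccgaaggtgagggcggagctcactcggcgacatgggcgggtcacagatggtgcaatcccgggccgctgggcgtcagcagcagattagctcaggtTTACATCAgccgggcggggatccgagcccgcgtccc
Asns: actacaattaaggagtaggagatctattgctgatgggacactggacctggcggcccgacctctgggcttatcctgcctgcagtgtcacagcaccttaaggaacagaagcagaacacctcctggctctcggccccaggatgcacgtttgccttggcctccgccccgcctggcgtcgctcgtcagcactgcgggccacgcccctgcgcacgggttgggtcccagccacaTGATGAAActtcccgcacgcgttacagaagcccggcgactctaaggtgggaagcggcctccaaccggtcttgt
On either strand the word occurs in 3.97% of 32851 windows and 4.51% of 27025 genes. Windows were at hand for 25 of the 33 list members (75.8%), fewer than 80%, so a check over the list is void. Of these, 5 of 17 called and 3 of 8 uncalled members held the word, from which no conclusion is drawn.

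Cytosolic aminoacyl-tRNA synthetases, which load amino acids onto transfer RNAs, overlap the ATF4 list in 3 genes. Of 20 tested, 9 were lower and 0 higher (1.98% and 1.71% of all features were), with a median of -0.11. Tars stood at -0.25 (SE 0.04), Gars at -0.23 (SE 0.03), Lars at -0.22 (SE 0.04) and Aars at -0.19 (SE 0.03), the enzymes for threonine, glycine, leucine and alanine. None of the 20 was called in the dCas9 line by edgeR, and 0 had an unadjusted p under 0.05 there. Of 22 chaperones and other genes of the unfolded protein response in the endoplasmic reticulum, 1 was higher and 2 lower. Of all features, 1.71% were higher and 1.98% lower. The median of this list was -0.02. The higher one, Atf6, was at 0.16 and lost its call in 10 of 23 alternatives. Herpud1, which takes part in degrading misfolded proteins of that compartment, was at -0.33 (SE 0.06, adjusted p = 1.97e-05).

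Genes of the fibroblast's extracellular matrix also included many members that were lower. Of 28 tested, 17 were called lower and 0 higher (1.98% and 1.71% of all features were), with a median of -0.17. In the repressor line 17 fell and 2 rose (5.88% and 6.53% of all features did). In the dCas9 line 1 rose and none fell. Col1a2, the collagen I alpha 2 chain (chromosome 6, 4504814 to 4541544), averaged 3449 ± 16.8 CPM in induced and 4435 ± 65.1 CPM in uninduced repressor libraries, and 4023 ± 102 CPM in induced and 4043 ± 54.1 CPM in uninduced dCas9 libraries (SD, n = 3 each). The interaction of Col1a2 was -0.36 (SE 0.03, adjusted p = 2.80e-17). Its induced repressor libraries were the lowest and its uninduced repressor libraries the highest of the 12. Col3a1, of collagen III, was at -0.38, Col1a1 at -0.23, Timp3, an inhibitor of matrix metalloproteases, at -0.35 and Lox, the enzyme that cross-links collagen, at -0.45. Uninduced, 8 of the 28 were higher in the repressor line and 1 lower (1.42% and 1.19% of all features were).

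Fmod, fibromodulin, a proteoglycan that binds collagen fibrils (chromosome 1, 134037254 to 134048277), measured 14.4, 12.7 and 12.9 CPM in the induced repressor libraries, 21.9, 22.1 and 24.2 CPM in the uninduced repressor libraries, 20.3, 20.2 and 21.1 CPM in the induced dCas9 libraries, and 20.2, 16.7 and 17.6 CPM in the uninduced dCas9 libraries. Its interaction was -0.95 (SE 0.10, adjusted p = 5.55e-12). The induced repressor libraries lay below all others. Kif26b, a kinesin family member that acts in cell adhesion and polarity (chromosome 1, 178529125 to 178939200), measured 69.0, 62.2 and 65.2 CPM in the induced repressor libraries, 110, 118 and 118 CPM in the uninduced repressor libraries, 102, 99.0 and 109 CPM in the induced dCas9 libraries, and 112, 110 and 109 CPM in the uninduced dCas9 libraries. Kif26b had an interaction of -0.73 (SE 0.05, adjusted p = 5.54e-20) and the same separation of the induced repressor libraries.

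Among genes of hyaluronan and of receptor tyrosine kinases, 6 of 20 were lower and 0 higher (1.98% and 1.71% of all features were). The median was nonetheless 0.0005. Cemip, which breaks down hyaluronan (chromosome 7, 83932857 to 84086502), measured 145, 144 and 145 CPM in the induced repressor libraries, 200, 197 and 191 CPM in the uninduced repressor libraries, 179, 183 and 184 CPM in the induced dCas9 libraries, and 173, 177 and 170 CPM in the uninduced dCas9 libraries. Its interaction was -0.50 (SE 0.04, adjusted p = 6.15e-18). The growth factor receptors Fgfr2, Met and Egfr were at -0.39 (SE 0.07), -0.21 (SE 0.03) and -0.20 (SE 0.04). Of 21 NF-kB targets 2 were lower (1.98% of all features were). These were the chemokine Cxcl1 at -0.66 (SE 0.09, adjusted p = 1.96e-07) and the macrophage growth factor Csf1 at -0.18 (SE 0.03). Il33, an alarmin cytokine held in the nucleus, measured 5.90, 6.04 and 6.98 CPM in the induced repressor libraries, 10.9, 11.2 and 14.4 CPM in the uninduced repressor libraries, 9.28, 10.1 and 11.6 CPM in the induced dCas9 libraries, and 10.2, 7.97 and 10.6 CPM in the uninduced dCas9 libraries. Its interaction was -1.06 (SE 0.16, adjusted p = 3.725e-06; 0.224 when the activator line's libraries were in the fit), and its induced repressor libraries lay below all others.

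Sytl2, an effector of the vesicle protein Rab27 (chromosome 7, 90302252 to 90410719), had the lowest interaction among features with a mean of at least 2 CPM, but its groups were ordered differently. It measured 3.35, 2.87 and 2.94 CPM in the induced repressor libraries, 7.45, 7.99 and 8.27 CPM in the uninduced repressor libraries, 4.10, 2.54 and 3.35 CPM in the induced dCas9 libraries, and 2.11, 2.36 and 2.83 CPM in the uninduced dCas9 libraries. The interaction was -1.83 (SE 0.21, adjusted p = 3.64e-10). Only the uninduced repressor libraries stood apart, by 1.72 from the uninduced dCas9 libraries (adjusted p = 1.68e-16), and the induced lines differed by -0.11 (adjusted p = 0.729). Further members at the low end were Dhrs3, a retinaldehyde reductase, at -0.77 (SE 0.17), Xdh, xanthine dehydrogenase, at -0.73 (SE 0.16), Megf6, a protein with EGF-like repeats, at -0.70 (SE 0.11) and Slc26a11, an anion transporter, at -0.74 (SE 0.15).

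Of 24 p53 targets 5 were lower and 0 higher (1.98% and 1.71% of all features were), with a median of -0.03. Plk2, a polo-like kinase, was at -0.20 (SE 0.04, adjusted p = 3.60e-05) and Trp53inp1, a p53 cofactor, at -0.71 (SE 0.17, adjusted p = 0.00303), while Cdkn1a, the inhibitor of cyclin-dependent kinases that p53 induces, was at -0.16 (adjusted p = 0.657). Sesn2 counts here and in the ATF4 list. In the dCas9 line 3 of the 24 rose, among them Ccng1, a cyclin G, by 0.15 (adjusted p = 0.00321) beside -0.02 in the repressor line (adjusted p = 0.795), and Ccng1 is 1 of the 5 that were lower in the interaction. Without induced repressor library 1, uninduced repressor library 2, induced dCas9 library 3 or uninduced dCas9 library 3, the count of the p53 list was 3, and it was 3 with DESeq2. Pmaip1, also 1 of the 5, lost its call in 16 of 23 alternatives.

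**Figure D4:**
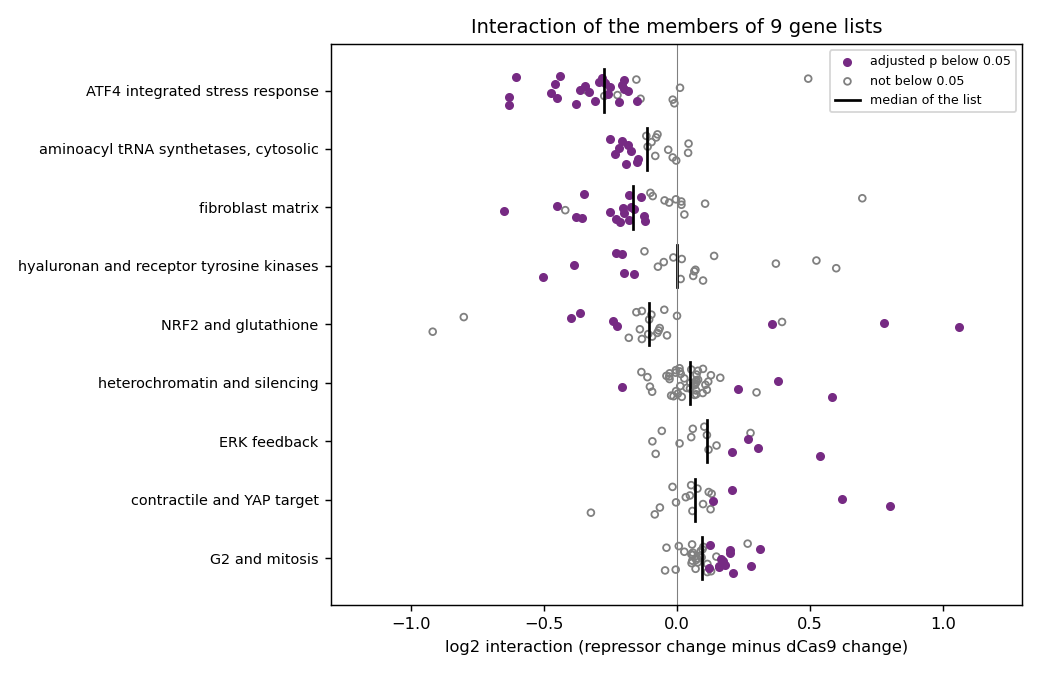
Log2 interaction of each tested member of 9 gene lists; filled points had an adjusted p below 0.05, open points did not, and the vertical bar is the median of the list. ATF4 and matrix members lie mostly left of 0, with medians of -0.27 and -0.17, and G2 and mitosis members mostly right of it, with a median of 0.10.

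Genes of G2 and mitosis were higher in the interaction for some members. Of 37 tested, 12 were higher and 0 lower in the interaction (1.71% and 1.98% of all features were), with a median of 0.10. In the repressor line 5 rose and 1 fell (6.53% and 5.88% of all features did). In the dCas9 line 13 fell and 0 rose (0.662% and 0.622% of all features did). Their summed level was 6419, 6558 and 6503 CPM in the induced repressor libraries, 6396, 6416 and 6432 CPM in the uninduced repressor libraries, 6177, 6158 and 6134 CPM in the induced dCas9 libraries, and 6519, 6448 and 6599 CPM in the uninduced dCas9 libraries, so that only the induced dCas9 libraries stood apart, on the low side. Ccnb2, a mitotic cyclin (chromosome 9, 70407692 to 70421547), measured 69.2, 70.6 and 67.4 CPM in the induced repressor libraries, 61.3, 61.9 and 63.4 CPM in the uninduced repressor libraries, 56.5, 58.0 and 57.7 CPM in the induced dCas9 libraries, and 63.2, 62.8 and 62.1 CPM in the uninduced dCas9 libraries. Its interaction was 0.28 (SE 0.05, adjusted p = 0.000158), from 0.15 in the repressor line (adjusted p = 0.0027) and -0.13 in the dCas9 line (adjusted p = 0.0743, not passed). The induced repressor libraries lay above and the induced dCas9 libraries below the rest. Pttg1, securin, which holds back sister chromatid separation until anaphase, was at 0.31. Anln, a scaffold of the cleavage furrow, was at 0.21, and the proliferation marker Mki67 at 0.20. With DESeq2 the count of the list was 7. Of 40 genes of G1/S and replication, none was called by edgeR or DESeq2, with 6 at an unadjusted p under 0.05 and a median of 0.03.

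The promoter window of Ccnb2 is shown because the cell cycle homology region, known to bind the repressor complexes of G2 and mitosis genes, has the word TTTGAA, here in capitals. It spans chr9:70421505-70421804 (GRCm38.p6, minus strand, RefSeq) and holds the word at 2 places, 167 bases before and 4 bases after the start.
Ccnb2: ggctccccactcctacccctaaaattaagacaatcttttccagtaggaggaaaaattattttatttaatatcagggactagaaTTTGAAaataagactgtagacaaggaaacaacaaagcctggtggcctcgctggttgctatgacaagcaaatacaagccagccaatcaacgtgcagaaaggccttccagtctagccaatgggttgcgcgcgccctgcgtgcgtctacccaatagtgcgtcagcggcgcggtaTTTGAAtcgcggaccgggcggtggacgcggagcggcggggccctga
On either strand the word occurs in 17.9% of 32851 windows and 20.2% of 27025 genes. Of the G2 and mitosis list, 32 of 37 members had a window and 23 of these held it, 7 of 11 called members and 16 of 21 not called.

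Rpl7l1, a paralogue of the ribosomal protein gene Rpl7 (chromosome 17, 46773907 to 46782672), was called in the dCas9 line and not in the repressor line. It measured 129, 127 and 125 CPM in the induced repressor libraries, 131, 129 and 126 CPM in the uninduced repressor libraries, 172, 164 and 162 CPM in the induced dCas9 libraries, and 127, 134 and 124 CPM in the uninduced dCas9 libraries. The induced dCas9 libraries lay above the other 9, with a change of 0.37 in the dCas9 line (adjusted p = 5.39e-16), -0.03 in the repressor line (adjusted p = 0.701) and an interaction of -0.39 (SE 0.04, adjusted p = 4.465e-11). Copies of such genes can share reads, so the count is uncertain. Among 82 cytosolic ribosomal protein genes, 3 were lower and 0 higher (1.98% and 1.71% of all features were), with a median of -0.05. Without induced dCas9 library 3, 6 were lower. Rplp0, of the ribosomal stalk, was at -0.14.

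In the interaction, 7 genes were called in opposite directions in the lines, 3 higher and 4 lower, and the 5 largest at a mean of at least 2 CPM are given here. Egr1, an immediate early transcription factor, rose by 0.18 in the repressor line and fell by 0.13 in the dCas9 line (adjusted p = 0.0462). Anln rose by 0.11 in the repressor line and fell by 0.10 in the dCas9 line. Uninduced, the repressor line already differed from the dCas9 line by 0.29 for Egr1 (adjusted p = 1.66e-09) and by -0.10 for Anln (adjusted p = 0.0123). Among those that were lower in the interaction, Ccnd2, a G1 cyclin, fell by 0.12 in the repressor line beside a rise of 0.11 in the dCas9 line, with an interaction of -0.22 (SE 0.03, adjusted p = 7.93e-08). Adamts5, a protease that cleaves aggrecan, fell by 0.16 beside a rise of 0.08 (adjusted p = 0.0364), and Serpinf1, a secreted serpin known as pigment epithelium-derived factor, fell by 0.29 beside a rise of 0.11 (adjusted p = 0.0454). None of these 5 changes in the dCas9 line exceeded 0.13 in size, and whether their calls in that line hold in the alternatives was not tested.

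Lists that showed few or no calls are as much part of the picture. No member was called in the interaction by edgeR or DESeq2 among 13 interferon-stimulated genes, whose median was 0.05, 24 genes of cholesterol synthesis and uptake at -0.05, 13 mitochondrially encoded genes at -0.04 and 61 replication-dependent histone genes at 0.05. At an unadjusted p under 0.05 these lists had 1, 4, 1 and 4 members. Histone genes were nonetheless called lower in each line on its own, 14 in the repressor line and 11 in the dCas9 line. Of all features, 5.88% and 0.662% were lower in these lines. Over all features 2172 had an unadjusted p under 0.05 in the interaction, and 1.71% were called higher and 1.98% lower. Several other lists had calls that rest on single libraries or on the tool. With DESeq2 the higher counts of the glycolysis, imprinted and clock lists given next were 0. The lower count of the nuclear respiratory chain list was also 0 with it. Hspa1b, the called heat shock gene, had an adjusted p of 0.16 with DESeq2. Of 18 heat shock genes 1 was higher, and 0 without induced repressor library 1, uninduced repressor library 1 or 2, induced dCas9 library 2 or uninduced dCas9 library 1. Of 26 glycolysis and hypoxia genes 1 was higher and 2 lower, and leaving out any 1 of the 12 libraries moved one of these counts, between 0 and 2 for each. Imprinted genes had 2 higher and 2 lower of 16. The 2 higher ones fell to 0 without induced dCas9 library 1 and to 1 without induced repressor library 2 or 3, uninduced repressor library 1 or 3, induced dCas9 library 2 or uninduced dCas9 library 1 or 3. The 2 lower ones fell to 1 without induced repressor library 3, uninduced repressor library 3 or uninduced dCas9 library 1, and Peg10, a gene of retrotransposon origin, was at -0.15. Nuclear genes of the respiratory chain had 1 lower of 33, and 0 without induced repressor library 1 or uninduced repressor library 3. The called gene, Sdhb, also had an adjusted p of 0.0791 without uninduced dCas9 library 3. The circadian clock had 1 higher of 17, which was 0 without uninduced dCas9 library 2 and 2 without induced repressor library 3, uninduced repressor library 3 or induced dCas9 library 3. Among lysosome and autophagy genes 1 of 25 was lower in the fit of the 12 libraries and without any 1 of them, Gabarapl1, of autophagosomes, at -0.25. Single genes named from further lists were Hspa9, the mitochondrial Hsp70, at -0.15, and Tgfb1, a TGF-beta ligand, at 0.44 (SE 0.08, adjusted p = 1.88e-05). The TGF-beta and BMP response list had 3 higher and 2 lower of 20, with a median of -0.04. Tgfb3, another ligand, was at -0.25 (adjusted p = 0.156 when the activator line's libraries were in the fit). In that fit the TGF-beta and BMP response list had 2 higher and 0 lower. The single germline or 2-cell-stage gene that passed the filter was not called by either tool, nor at an unadjusted p under 0.05.

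Markers of cell types moved in places with these lists. Among the 11 tested fibroblast markers 7 were lower in the interaction and 0 higher (1.98% and 1.71% of all features were), with a median of -0.23. Their sum was between 19150 and 19490 CPM in the induced repressor libraries, 22460 and 22960 CPM in the uninduced repressor libraries, 21280 and 21910 CPM in the induced dCas9 libraries, and 21390 and 21960 CPM in the uninduced dCas9 libraries. Prrx1, a transcription factor of mesenchyme, was at -0.29 (SE 0.04), and 3 of the called markers are the collagen genes above. Neural markers summed to between 54.65 and 55.68 CPM in the induced repressor libraries against at most 37.66 CPM in the other 9, nearly all of it Tubb3, a neuronal beta-tubulin, at 0.50 (SE 0.07, adjusted p = 2.55e-08). Muscle markers summed to between 11.01 and 12.29 CPM in the induced repressor libraries against at most 9.004 CPM in the other 9. The myogenic factors named above were at 0. Of 3 tested members 1 was higher, Des, the muscle intermediate filament desmin, at 1.22. Des was of low level, with 397 counts over the 12 libraries and at most 2.79 CPM. The count of the list was 2 without induced repressor library 2 or induced dCas9 library 2, and 0 with DESeq2. Epithelial, macrophage and adipocyte markers had 1, 2 and 2 tested members and no call by edgeR or DESeq2, with 0, 1 and 0 at an unadjusted p under 0.05, and no endothelial marker passed the filter. The part of cell makeup in the interactions of the matrix list was not tested.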

How the data were processed

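Total RNA was sequenced from 12 libraries of 2 fibroblast lines, 3 per group, with a stranded total RNA kit and paired-end reads, per the labels' protocols. The deposited table holds raw read counts per gene, and the genome build is mm10 per the submitters' processing notes; which aligner, counter and gene annotation the authors used, and whether counting was by strand, is not stated in the material at hand. Depth is the total count per library. Gene names and positions came from GENCODE release M21, and promoter sequences from RefSeq (GRCm38.p6). Counts were tested with edgeR 4.0.16 (R 4.3.3; TMM scaling, filterByExpr, robust quasi-likelihood test, 1 coefficient per group), with Benjamini-Hochberg adjustment over 14952 features and a threshold of 0.05. CPM values use TMM library sizes. The 13 satellite models were chosen by sequence and summed. Alternatives included DESeq2 1.42.0, limma-voom (limma 3.58.1), other scalings and filters, a replicate block and leaving out each library. The members and gene lists were chosen with earlier results of these data known. Genes named were, at a mean of at least 2 CPM, among the 15 highest and 15 lowest interactions, the 8 smallest adjusted p-values per direction, up to 4 called members per list, or the 5 largest per pattern of calls in the lines. List members named as not passing, and Atf4 and Adgrf5, were chosen after their values were seen. Des, a called marker of low level, is also outside this rule.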

Additional observations from a re-analysis of the deposited data

Results flagged for a closer look

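Induction changed 255 features higher and 296 lower in the repressor line than in the dCas9 line by the test of the difference itself. The satellite sum was among the lower ones, at -1.14. Changes called in opposite directions in the lines gave interactions of -0.39 for Serpinf1, -0.25 for Adamts5 and -0.22 for Ccnd2. Egr1 and Anln, which rose in the repressor line and fell in the dCas9 line, had interactions of 0.31 and 0.21. Uninduced, Egr1 already differed by 0.29 between the lines. The opposite directions rest on calls in the dCas9 line, which numbered 75 to 202 over the alternatives, against 192. Whether the calls of these 5 genes hold there was not tested.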

How the results depend on the processing

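Of 117 named genes, 79 kept their direction and their call in all 23 alternatives, and 0 reversed; 215 of 2691 gene values under an alternative no longer passed. With DESeq2 the interaction had 125 features higher and 192 lower, against 255 and 296 with edgeR, and the repressor line's induction had 1148, against 1855. The dCas9 line's induction had 92 with DESeq2, 76 when the activator line's 6 libraries were in the fit and 121 once replicate number was a block inside either line, against 192. The satellite interaction was -1.14 in the fit of 18 libraries, where it did not pass. The cause was not tested for any of these. Leaving out each library in turn gave 181 to 241 features higher and 242 to 298 lower in the interaction, 1282 to 1959 in the repressor line, 75 to 200 in the dCas9 line, and a satellite interaction between -1.37 and -0.997. Without the filter on low counts 35.6% of the calls were higher (191 against 345 lower), against 46.3% with it. A replicate block across groups gave 267 higher and 309 lower. Whether replicate numbers pair the samples was not settled. Of 18 same-numbered pairs, 0 had a correlation of deviations over 0.1 (-0.0304 to 0.0383), but 13 correlated best with their own number. The satellite sum is limited by its few reads.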
